A study of Macaca fascicularis and Macaca mulatta and Papio anubis with 20 samples.

Results

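The genes described are 10 transcripts used as markers of adipocytes, the lipid-storing cells of fat: PLIN1, PLIN4, ADIPOQ, FABP4, CIDEC, LPL, PPARG, CIDEA, PCK1 and LEP. They were chosen by gene symbol, and all 10 were matched once among the 22000 features counted in the Macaca fascicularis sections. The tissue was the dorsal root ganglion, which holds the cell bodies of sensory neurons, measured in frozen sections by Visium spatial transcriptomics. Here a section is laid on a slide with a grid of barcoded spots, and captured transcripts are counted by unique molecular identifiers (UMIs). One spot covers a small area, in which several cells, or parts of them, may lie. Levels are given as CPM, the UMIs of a gene per 1000000 UMIs of the section, group of spots or specimen. Of 20 sections, 16 were labelled M. fascicularis: 4 each of a female in batch 1, a male in batch 1, a female in batch 2 and a male in batch 2. The other 4, all labelled batch 2 with no sex given, were 2 labelled Macaca mulatta and 2 labelled Papio anubis. No age or treatment was labelled for any group.

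Sections that share a title code were treated as 1 specimen, which the labels do not state, so each combination of sex and batch is 1 specimen. The batch label therefore cannot be told apart from the specimens in it, nor from the Space Ranger version, since batch 1 was processed with 2.0.0 and the batch 2 sections of M. fascicularis that have matrices with 2.1.0. The sections labelled M. mulatta carry gene identifiers of P. anubis and those labelled P. anubis carry identifiers of M. mulatta, so these 2 labels may be crossed. Tissue UMIs ran from 1136433 to 7073134 in the M. fascicularis sections and from 190376 to 12595205 in the other 4. Male batch 2 section 3 entered through its deposited gene table alone, so results over spots rest on 15 M. fascicularis sections. The 10 measured neuron markers together were at 21991 to 30275 CPM (group means of M. fascicularis), whereas 4 skeletal muscle markers together were at 5.12 to 12.2. Of 3 hemoglobin genes, none was matched.

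Fat cells surround ganglia and nerves, and peripheral nerve has an outer sheath, the epineurium, in which vessels and fat lie. PPARG is the transcription factor that drives fat cell formation. PLIN1, PLIN4, CIDEC and CIDEA encode proteins of the lipid droplet, FABP4 a fatty acid carrier, PCK1 an enzyme of glycerol formation, and ADIPOQ and LEP the hormones adiponectin and leptin. LPL, lipoprotein lipase, releases fatty acids from circulating lipoproteins and is also made outside fat, while FABP4 is made by capillary endothelium and macrophages as well as by adipocytes.

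LPL carried the sum. Of 137703 UMIs of the 10 genes in the 16 M. fascicularis sections, 135638 were LPL (98.5%), and its share ran from 88.9% in female batch 1 section 1 to 99.9% in male batch 2 section 1. FABP4 gave 1614 UMIs, or 1.17% of the sum. The remaining 8 genes gave few UMIs: PLIN1 189, PPARG 113, CIDEC 76, ADIPOQ 41, CIDEA 13, LEP 10, PCK1 8 and PLIN4 1. These are shares of captured 3′ molecules and not levels per length of transcript. A summed score over the list is therefore, in these sections, a score of LPL. Without LPL the sum fell from 1359 to 49.3 CPM in the female of batch 1 and from 4843 to 46.4 in the male of batch 2 (means of 4 sections). Both means without LPL rest on 1 section: female batch 1 section 1 was at 149 CPM with the others at 12.3 to 22.7, and male batch 2 section 3 at 151 with the others at 7.14 to 14.1.

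LPL, the lipase, was detected in 53.5% to 93.8% of tissue spots of the M. fascicularis sections, against 4.88% to 21.8% of the far shallower spots outside the tissue. Its level in tissue was 1190.3, 984, 1548 and 1518 CPM in sections 1 to 4 of the female of batch 1. In the male of batch 1 it was 1260.4, 1248, 1393 and 1020.3. The sections of these 2 specimens overlapped, at 1310.0 ± 271 and 1231 ± 155 (SD, n = 4 sections).

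In batch 2 every M. fascicularis section lay above every section of batch 1. LPL was at 2299.8, 2759.8, 2210.3 and 2708 CPM in sections 1 to 4 of the female. In the male the section values were 5923, 5524, 3772 and 3968, so that all 4 male sections lay above all 4 female ones in that batch. The 2 sections labelled M. mulatta held 2595 and 2974, and the 2 labelled P. anubis 1029 and 1069. By group mean the order was labelled P. anubis, male batch 1, female batch 1, female batch 2, labelled M. mulatta and male batch 2. Only the neighbours female batch 1 and female batch 2, and labelled M. mulatta and male batch 2, did not overlap.

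**Figure D1:**
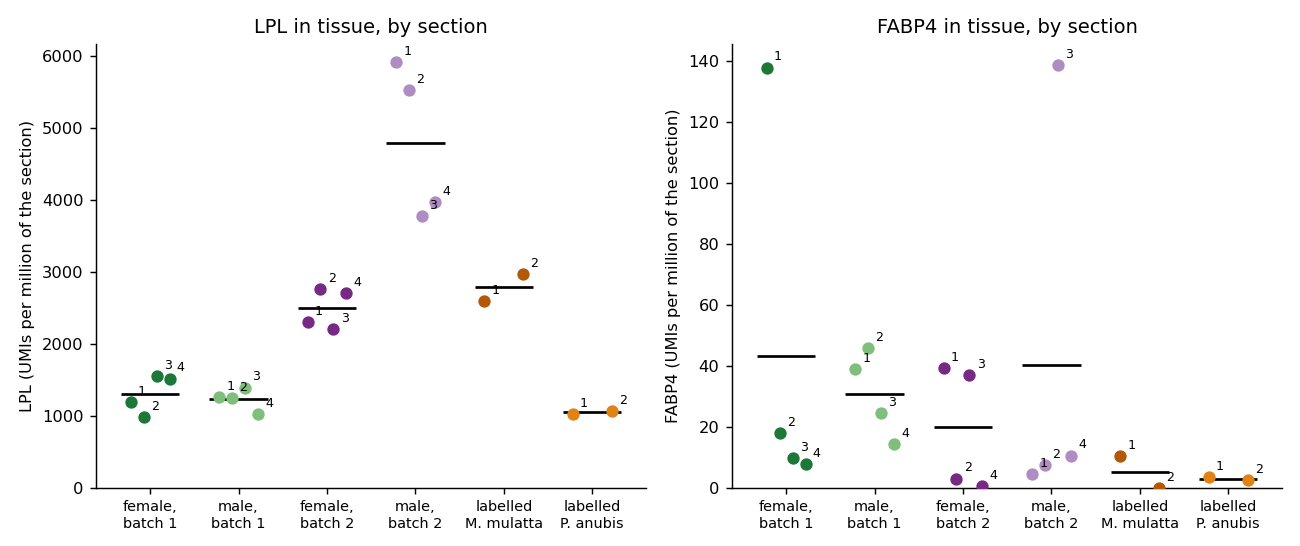
LPL (left) and FABP4 (right) in CPM of the tissue UMIs of each section; points are sections, numbered as labelled, and bars are group means. Among the M. fascicularis sections LPL separates batch 1 (984 to 1548) from batch 2 (2210.3 to 5923), the sections labelled P. anubis lie at 1029 and 1069, and FABP4 is high in single sections: female batch 1 section 1 and male batch 2 section 3.

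With specimens as samples, the LPL difference between batches was 1.60 on the log2 scale (SE 0.36, n = 2 specimens a batch), with an adjusted p = 0.0654 (edgeR quasi-likelihood test, Benjamini-Hochberg). It missed the threshold of 0.05, and it passed in 5 of 16 fits without a single section. Among all 21 alternative fits it passed in 10, and the adjusted p (edgeR, DESeq2 or limma-voom, Benjamini-Hochberg) ran from 9.49e-07 to 0.114. Those 21 include fits with sections as samples, which treat sections of 1 specimen as replicates. Among 17322 genes with a UMI, 334 (1.93%) likewise had all batch 2 sections above all batch 1 sections. LPL was the 1 member of 10 among them. In these data fewer cells of a type and less RNA per cell cannot be told apart. The myelinating Schwann cell list (8 markers measured) differed in the other direction, at 5972 and 5542 CPM in the batch 1 specimens and 2162 and 3224 in those of batch 2. The fibroblast list (10 markers) was at 2091 and 1611 CPM and at 368 and 286 in the same order. Their part in the LPL result was not tested.

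ADIPOQ, which encodes adiponectin, was the 1 member of 5 tested that edgeR called between batches, where 364 of 12650 genes (2.88%) were called. Its UMIs numbered 2 in batch 1 (0.0559 CPM over all sections) against 39 in batch 2 (1.42 CPM). The pooled ratio was 25.4, with an exact 95% interval of 6.58 to 217 that covers counting error only. Its log2 fold change was 4.52 (SE 0.84), adjusted p = 0.0355 (edgeR quasi-likelihood test, Benjamini-Hochberg). The sections overlapped, because 4 of the 8 batch 2 sections had no ADIPOQ UMI. ADIPOQ passed the count filter only through the batch 2 specimens, where it was high, so no conclusion is drawn from its call.

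The call rested on few sections. It was lost with DESeq2 (adjusted p = 0.0996) and, in edgeR's fit with Benjamini-Hochberg adjustment, without male batch 2 section 1 (adjusted p = 0.0698) or section 2 (adjusted p = 0.0642), although neither holds an ADIPOQ UMI. Without male batch 2 section 3, ADIPOQ fell under the count filter and was not tested. PLIN1 (log2 fold change 0.12, SE 0.51), FABP4 (0.12, SE 0.27) and PPARG (-0.13, SE 0.55) were not called between batches, and the sign of each changed when some single section was left out. The other 5 members did not pass the count filter. With no filter CIDEC was called as well, at 3.13 (SE 0.94, adjusted p = 0.0181 by edgeR, Benjamini-Hochberg), and 68 of its 76 UMIs were in 1 specimen, the female of batch 2.

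FABP4, the fatty acid carrier, varied widely between sections of 1 specimen. In the female of batch 1 it was at 138, 18.0, 9.79 and 7.67 CPM in sections 1 to 4, and in the male of batch 1 at 38.9, 45.8, 24.5 and 14.4. In batch 2 it was at 39.3, 3.03, 36.9 and 0.586 in the female and 4.35, 7.35, 139 and 10.6 in the male. The group means ran from 19.96 to 43.3. Means of 4 sections vary less than single sections by averaging alone, so these spreads are not compared. FABP4 had 2 UMIs and none in the sections labelled M. mulatta, and 2 and 31 in those labelled P. anubis.

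The sparse genes of the list did not all appear in the same sections. ADIPOQ had 14 and 11 UMIs in female batch 2 sections 1 and 3, 10 in male batch 2 section 3, and at most 4 in any other section. CIDEA, a lipid droplet protein of thermogenic fat, had 5 and 4 UMIs in female batch 2 sections 1 and 3, and PCK1 had 3 and 2. Male batch 2 section 3 held 1 CIDEA and 2 PCK1 UMIs. CIDEC, which fuses lipid droplets, followed another pattern: 17, 20, 16 and 15 UMIs in sections 1 to 4 of the female of batch 2, and at most 2 in any other M. fascicularis section.

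CIDEC also had 4 and 2 UMIs in the shallow sections labelled M. mulatta, or 21.0 and 7.56 CPM, and none in those labelled P. anubis. LEP, leptin, had 2 UMIs in the female and 8 in the male of batch 1, and none in M. fascicularis of batch 2. A count of 0 allows up to 0.156 CPM in the female of batch 2 and 0.362 in the male, each at 3 counts a specimen. PLIN1, the droplet coat protein of fat cells, had 3 to 28 UMIs in all 16 sections, at 1.33 to 7.53 CPM. It had no UMI in the sections with the other 2 species labels. PPARG had 1 to 14 UMIs in all 16 M. fascicularis sections, at 0.494 to 4.35 CPM.

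Between the sexes no member was called by edgeR's quasi-likelihood test with batch in the model, where 0 of 12650 genes (0%) were called and 169 had an unadjusted p under 0.05. DESeq2 and limma-voom likewise called 0 genes of 12650. FABP4 came nearest, with a log2 fold change of 0.62 in males over females (SE 0.27, adjusted p = 0.998 by edgeR, Benjamini-Hochberg), and turned to -0.60 without male batch 2 section 3. LPL differed by 0.33 (SE 0.36) and was likewise not called. With 1 specimen of each sex in a batch, a sex difference that itself differs between batches was not tested.

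LPL was spatially patterned in every M. fascicularis section, and FABP4 in most. In the authors' deposited table, Moran's I of LPL was 0.0399 and 0.0080 in sections 1 and 2 labelled M. mulatta. It was 0.0052 and 0.132 in sections 1 and 2 labelled P. anubis. The adjusted p there did not pass 0.05 in labelled M. mulatta section 2 or labelled P. anubis section 1. Moran's I, a score that is above 0 where neighbouring spots are alike, had a median of 0.139 for LPL over the 16 M. fascicularis sections in the authors' deposited table, with a range of 0.0433 to 0.359. In the authors' deposited table its adjusted p passed 0.05 in 16 of 16 sections, and its score stood at percentile 97.9 to 99.7 of the genes listed for a section. FABP4 had a median Moran's I of 0.0845 in the authors' deposited table and passed in 11 of 16 sections. In the authors' deposited table its values were lowest, at -0.0036 to 0.0114, in the sections with 17 or fewer FABP4 UMIs. PLIN1, at a median of -0.0024 in the authors' deposited table, passed in 1 of 16 sections, and PPARG, ADIPOQ, CIDEC and PCK1 in none of those that listed them. In the authors' deposited table LEP passed in 1 of 4 sections, male batch 1 section 3 (Moran's I 0.035 from 3 UMIs), which was also the section in which PLIN1 passed. CIDEA passed in 1 of 6 in the authors' deposited table, from 1 UMI.

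Moran's I was also computed here on log-scaled UMIs of tissue spots with at least 200 UMIs. Its medians over 15 sections were 0.121 for LPL and 0.133 for FABP4, although FABP4 has far fewer UMIs. The sum of the 10 genes gave a median of 0.116, and the sum without LPL gave 0.105. On raw UMIs of the same spots, which also carry the depth of each spot, LPL rose to 0.465 and FABP4 fell to 0.0821. With all tissue spots that have a UMI, on the log scale, the order turned. LPL was then at 0.149, FABP4 at 0.133 and the sum of the 10 genes at 0.152.

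LPL was highest in spots rich in myelin markers, and it was not higher in spots with at least 1 UMI of PLIN1, ADIPOQ, CIDEC or LEP. In each section, spots with at least 200 UMIs were ranked by the share of UMIs in a marker list, and the top 25% were compared with the rest within the 4 specimens, leaving the list's own genes out of the fit. In spots rich in myelinating Schwann cell markers, LPL was at 3597 and 3512 CPM in the female and male of batch 1, against 1210 and 1049 in the other spots. In batch 2 it was at 3893 against 2439.5 in the female and 6817 against 5287 in the male. All 4 specimens were higher, by 1.12 on the log2 scale (SE 0.22), adjusted p = 0.00138 by edgeR (Benjamini-Hochberg), in a comparison where 34.3% of genes were called. LPL was the 1 member called of 3 tested. These spots were shallow: in the female of batch 1, 970 of them held 1019350 UMIs and the other 2909 held 15471083, and the direction was the same in the other 3 specimens. The part of depth in the LPL difference was not tested.

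Spots rich in satellite glia markers, the cells that wrap neuron bodies, also held more LPL, by 0.60 (SE 0.10), adjusted p = 2.98e-05 by edgeR (Benjamini-Hochberg) (32.9% of genes called, and 2 of 3 members). In the same spots 7 of 7 myelinating Schwann cell genes (median 1.36) and 7 of 7 fibroblast genes (1.25) were called higher. This class therefore does not isolate satellite glia, and the part of each cell type in its LPL was not tested. Neuron-rich spots held less LPL, by -0.41 (SE 0.06), adjusted p = 0.000128 by the same edgeR test (43.5% called, and 2 of 4 members). They had 1062 and 917 CPM in batch 1 against 1573 and 1411 elsewhere, and 2173 and 4592 in batch 2 against 2875 and 5801. In immune cell-rich spots LPL was higher by 0.33 (SE 0.08), adjusted p = 0.0225 by edgeR (Benjamini-Hochberg) (14.4% called, and 1 of 3 members). That call was lost in the top 10% of spots and without either batch 1 specimen. It was not called in spots rich in fibroblast (log2 fold change 0.35, SE 0.23), endothelium (0.07, SE 0.05) or smooth muscle markers (0.42, SE 0.21).

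**Figure D2:**
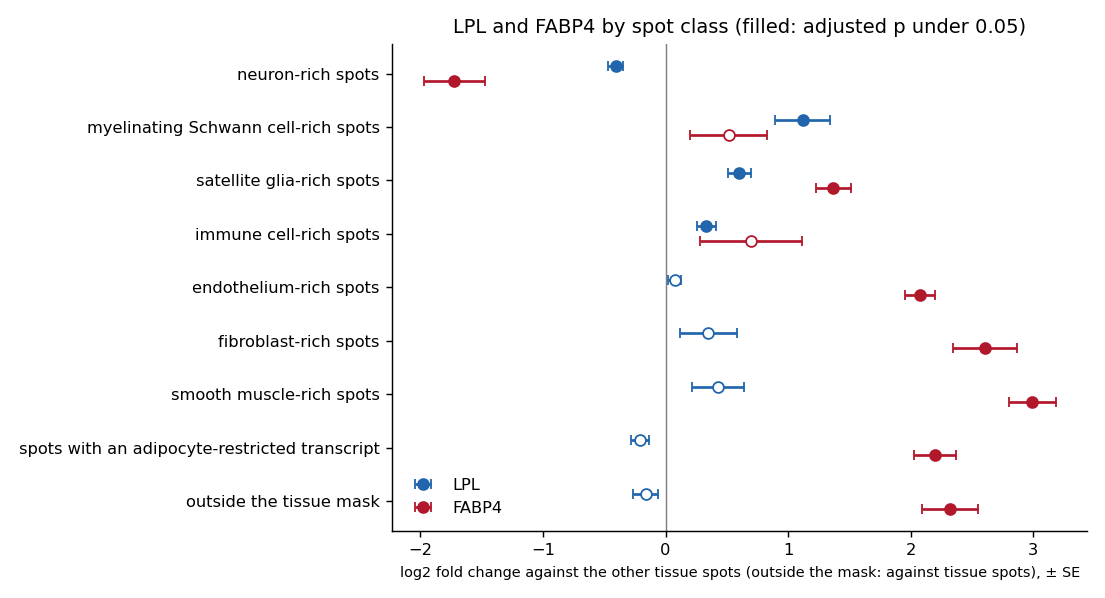
Log2 fold change of LPL (blue) and FABP4 (red) in each class of spots against the other tissue spots, and outside the tissue mask against tissue spots, with standard errors from edgeR over 4 specimens; filled points had an adjusted p under 0.05. LPL is highest for the myelinating Schwann cell list (1.12), whereas FABP4 is highest for smooth muscle (2.99), fibroblast (2.60) and outside the mask (2.32).

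LPL rose stepwise with the myelin share. From the lowest to the highest 25% of spots by myelinating Schwann cell share it went from 919 to 3599 CPM in the female of batch 1 and from 815 to 3514 in the male. In batch 2 it went from 1799 to 3889 and from 4722 to 6803. In the highest 25% the female of batch 2 lay close to both batch 1 specimens, and in the lowest 25% it lay above them, while the male of batch 2 was highest in both. The log2 fold change in myelinating Schwann cell-rich spots differed by -1.11 between batch 2 and batch 1 (SE 0.27), but this difference missed the threshold, adjusted p = 0.0572 by edgeR (Benjamini-Hochberg) (0.68% of genes called). With no low-count filter it was called, at -1.07 (adjusted p = 0.00556 by edgeR, Benjamini-Hochberg).

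The neuron and myelin lists were also crossed. In spots outside the top 25% for neuron markers and within it for myelin markers, LPL was at 3666, 3540, 3978 and 7120 CPM in the female and male of batch 1 and the female and male of batch 2. In spots within the top 25% for neuron markers and outside it for myelin markers, LPL was at 1057, 913, 2168 and 4567. In spots high in neither list it lay between, at 1333, 1167, 2769 and 5612.

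**Figure D3:**
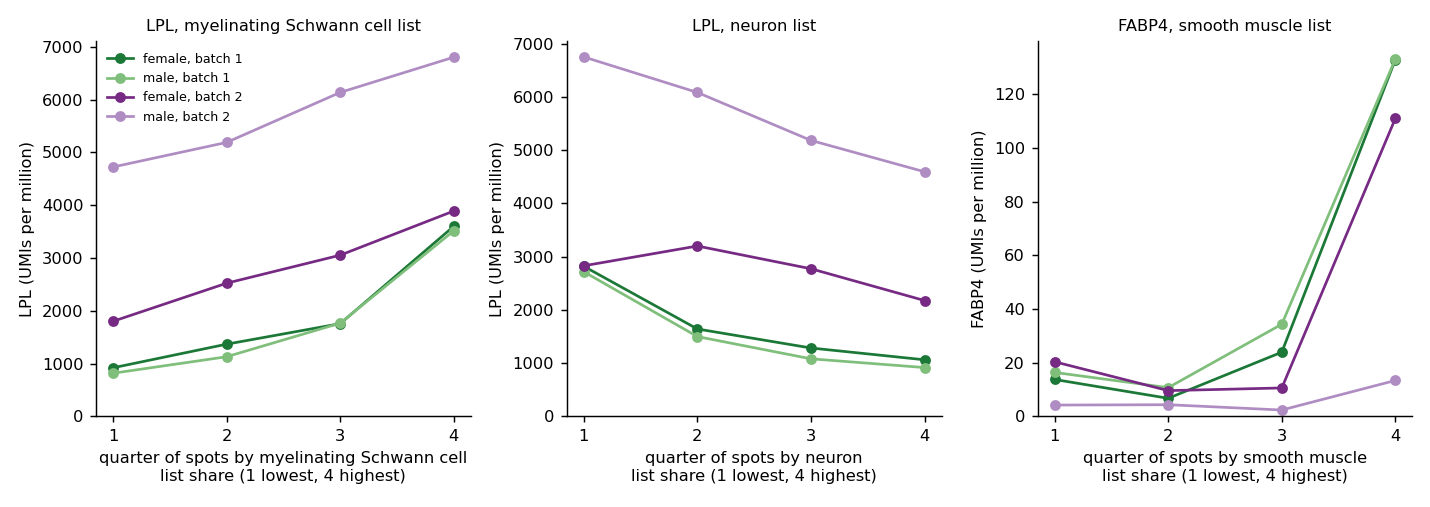
CPM of LPL by 25% bin of spots ranked on the myelinating Schwann cell list (left) and the neuron list (middle), and of FABP4 by 25% bin of the smooth muscle list (right); each line is 1 specimen. LPL climbs with myelin share in all 4 specimens and is lowest in the most neuron-rich bin, while FABP4 jumps in the top bin for smooth muscle, to 133 in both batch 1 specimens.

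Among the genes whose spot-by-spot pattern was most like LPL were SPARC, a matrix-binding glycoprotein (mean r = 0.313), PMP22, a myelin protein (0.273), and CRYAB, a small heat shock protein (0.222). These are mean Pearson correlations over 15 sections, among 5493 genes with at least 20 CPM. Spots of a section share a library and its depth, so the values are descriptive. The closest genes for FABP4 were ACTA2 (0.136) and TAGLN (0.128), of the smooth muscle contractile apparatus, TXNIP (0.124), FBLN1 (0.118) and MGP (0.115). Those correlations are weak.

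FABP4 had another distribution. In smooth muscle-rich spots it was at 133, 133 and 111 CPM in the female and male of batch 1 and the female of batch 2, against 13.2, 19.0 and 12.3 in the other spots. In the male of batch 2 it was at 13.6 against 3.50, from 38 UMIs in all. The log2 fold change was 2.99 (SE 0.19), adjusted p = 1.48e-05 by edgeR (Benjamini-Hochberg), where 20.6% of genes were called and FABP4 was the 1 member called of 2. FABP4 also rose in fibroblast-rich spots, by 2.60 (SE 0.26, adjusted p = 0.000696 by the same edgeR test, 15.5% called). In endothelium-rich spots it rose by 2.07 (SE 0.12, adjusted p = 1.38e-07 by edgeR, 5.83% called), and in satellite glia-rich spots by 1.37 (SE 0.14, adjusted p = 4.37e-08 by edgeR). It fell by 1.72 in neuron-rich spots (SE 0.25, adjusted p = 7.16e-05 by edgeR). In myelinating Schwann cell-rich spots (0.51, SE 0.31) and immune cell-rich spots (0.70, SE 0.41) it was not called, and the sign of each turned without 1 specimen. The smooth muscle, fibroblast and endothelium classes overlap. In smooth muscle-rich spots 7 of 7 fibroblast genes (median 2.22) and 8 of 8 endothelium genes (1.71) were called higher. Such spots were also shallow, except in the male of batch 2. In the female of batch 1, 970 held 1456569 UMIs and the other 2909 held 15033864. The parts of overlap and depth in the FABP4 differences were not tested.

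FABP4 lay at the rim of the tissue. Of 780 tissue spots with FABP4, 347 (44.5%) were at the edge of the tissue, where 23.3% of the 21897 tissue spots lie. It was at 11.3 CPM in interior spots, 66.2 in edge spots and 131 in the ring of spots just outside the tissue, and then at 93.6, 72.6 and 52.9 farther out. Edge exceeded interior in 15 of 15 sections, and spots outside the tissue exceeded tissue spots in 15 of 15. Outside the mask FABP4 was higher by 2.32 (SE 0.23), adjusted p = 3.19e-07 by edgeR (Benjamini-Hochberg), where 11.4% of genes were called; this comparison was chosen after seeing the data. PLIN1 was also called there, at 1.38 (SE 0.37, adjusted p = 0.0168 by edgeR, Benjamini-Hochberg), so that 2 of 3 members tested were called. The PLIN1 call was lost with DESeq2 and without either batch 1 specimen.

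LPL did not follow that gradient. It was at 2115 CPM in interior spots, 1986 at the edge and 1832 just outside, and its difference outside the mask was -0.16 (SE 0.10, adjusted p = 0.347 by edgeR (Benjamini-Hochberg)). The smooth muscle list rose with FABP4 from 312 in the interior to 720 at the edge and 824 just outside, the fibroblast list from 1038 to 1779 and 2059, and the endothelium list from 245 to 353 and 319. Spots outside the tissue are shallow, with a median of 10 to 102 UMIs a spot, and their part in the FABP4 result was not tested.

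**Figure D4:**
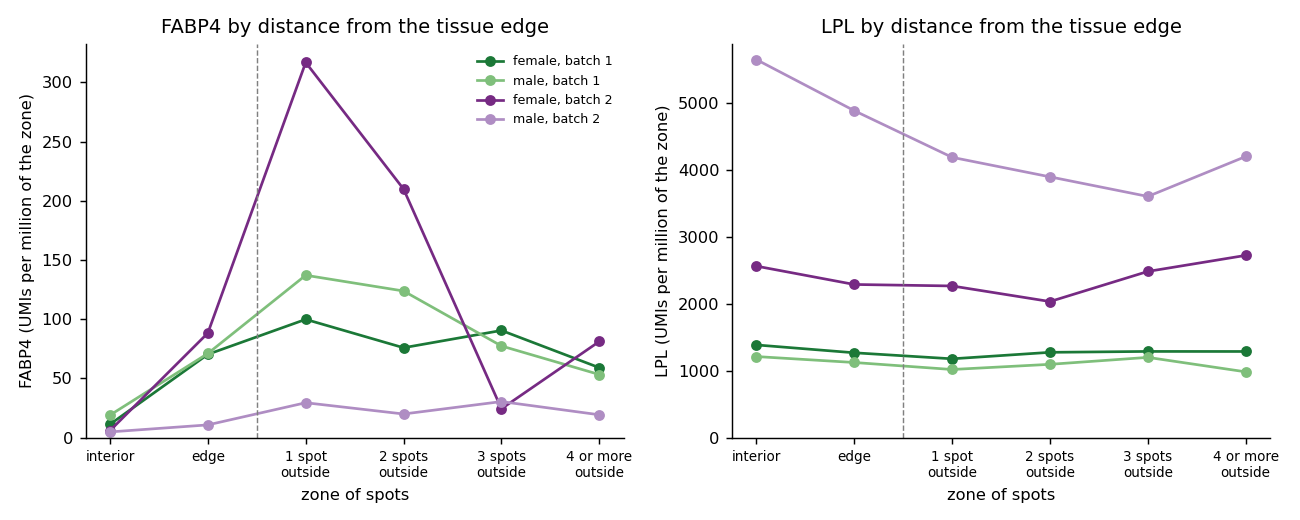
FABP4 (left) and LPL (right) in CPM of each zone of spots, from interior tissue to 4 or more spots beyond the tissue; the dashed line is the tissue border and each line is 1 specimen. FABP4 is lowest in the interior of all 4 specimens and reaches 317 just outside the tissue of the female of batch 2, while LPL stays near its tissue level in batch 1.

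Tissue spots with an ADIPOQ UMI numbered 1 in the female of batch 1, 1 in the male of batch 1 and 0 in the analysed sections of the male of batch 2. Other fat cell transcripts in ADIPOQ spots could therefore be looked at only in the female of batch 2. In its 24 tissue spots with an ADIPOQ UMI, FABP4 was at 1780 CPM against 14.01 in the other spots, and PCK1 at 72.1 against 0.105, from 3 UMIs. The endothelium list was at 1323 against 240 and the smooth muscle list at 1347 against 308, whereas the neuron list was lower, at 17892 against 30569. LPL was at 2381 against 2524, so adiponectin-positive spots held no more of it. CIDEC was absent from these 24 spots, PLIN1 had 1 UMI there and PPARG 1.

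ADIPOQ spots, like FABP4 spots, were often at the edge: 14 of 26 (53.8%) over the M. fascicularis sections. In female batch 2 section 3 another 8 ADIPOQ UMIs and 65 FABP4 UMIs lay outside the mask, at 98.5 and 800.2 CPM, against 2.66 and 36.9 in its tissue. CIDEC spots were at the edge in 4 of 71 cases (5.63%). PLIN1 spots were there in 40 of 166 cases (24.1%). In the male of batch 1 PLIN1 went from 3.21 CPM in the interior to 6.28 at the edge and 20.03 just outside, from 50, 23 and 13 UMIs. The female of batch 2 had 3.11, 2.16 and 0, from 51, 6 and 0 UMIs. It had 1 more UMI at 3 spots outside and 1 at 4 or more. These counts are too few to show a fall in that specimen. In the 64 CIDEC spots of the female of batch 2, FABP4 was at 7.02 against 18.2, and LPL at 2502 against 2525.

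**Figure D5:**
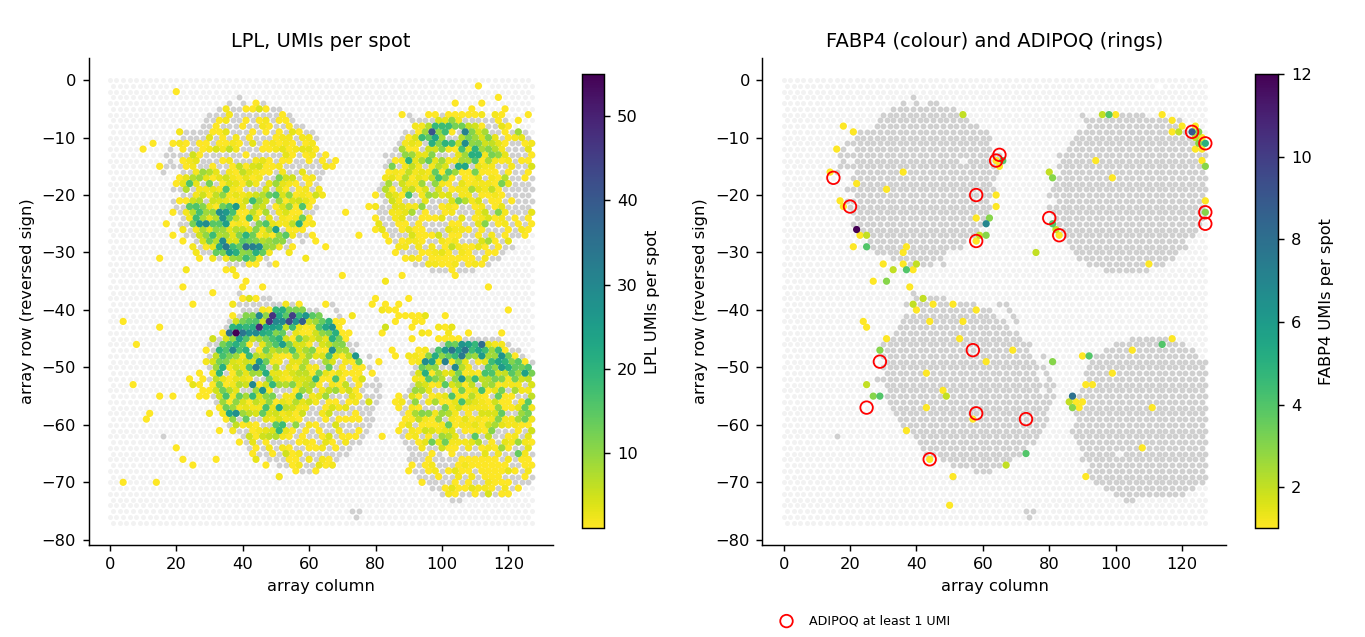
Capture area of female batch 2 section 3, chosen after seeing the data because it holds ADIPOQ both in and outside the tissue: UMIs per spot of LPL (left) and of FABP4, with red rings on spots with ADIPOQ (right); dark grey spots are tissue without the gene and pale spots lie outside. LPL fills bands of the tissue pieces, while the 153 tissue and 65 outside FABP4 UMIs gather along their rims.

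Depth differed between these spots. In the female of batch 2, CIDEC spots had a median of 7832 UMIs and PLIN1 spots 7770.5, against 507.5 and 508 in spots without them, while ADIPOQ spots had 1046 against 512. The part of depth in where single CIDEC and PLIN1 molecules were seen was not tested.

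Spots with a UMI of any of the 4 genes most restricted to fat cells (PLIN1, ADIPOQ, CIDEC, LEP) were 0.281% to 3.06% of tissue spots in the M. fascicularis sections. In these, FABP4 was at 91.6, 115 and 76.6 CPM in the female and male of batch 1 and the female of batch 2, against 22.3, 26.9 and 14.1. The male of batch 2, with 14 such spots, had none. FABP4 was higher by 2.20 (SE 0.17), adjusted p = 4.98e-33 by edgeR (Benjamini-Hochberg), where 0.768% of genes were called and FABP4 was the 1 member called of the 2 tested. This p-value rests on a spread shared over genes, and does not measure how FABP4 itself varied between the 4 specimens. LPL was at 1253, 936, 2391 and 5030 in these spots against 1360, 1200, 2512 and 5449 in the others, lower in all 4 specimens but not called (log2 fold change -0.21, SE 0.07, adjusted p = 0.254 by edgeR). In the same spots 4 of 7 myelinating Schwann cell genes tested were called lower by edgeR (median -0.78) and 0 higher. Median depth was higher in these spots in every section but male batch 1 section 4, as at 7874 UMIs against 408.5 in female batch 2 section 2. The parts of depth and of myelin in the LPL values were not tested.

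Other genes of lipid storage were also called in the myelin-rich spots. These counts are to be read beside the 34.3% of all genes called in that comparison, in either direction. For the other adipocyte genes the share called was near it. Of 6 other adipocyte genes tested, 2 were called higher there by edgeR and none lower: GPD1, glycerol-3-phosphate dehydrogenase, by 3.19 (SE 0.26), and DGAT2, which makes triglyceride, by 2.21 (SE 0.31). Of 16 lipid droplet and lipid handling genes, 5 were called higher and 3 lower, with a median log2 fold change of 0.28 against 0.02 over all genes. PLIN2, the droplet coat protein of cells other than fat cells, rose by 1.96 (SE 0.20), MGLL, which cleaves monoglycerides, by 1.76 (SE 0.22) and PLIN3 by 0.74 (SE 0.15), whereas FABP3 fell by 1.10 (SE 0.17). Of 8 PPARG partners and adipokine receptors, 4 were called higher: RXRA, the partner receptor of PPARG (1.69, SE 0.28), NCOR1 (0.88, SE 0.17), NCOA1 (0.53, SE 0.17) and ADIPOR2 (0.45, SE 0.14). The NCOA1 and ADIPOR2 calls were lost when some specimens were left out.

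Between batches, where 2.88% of all genes were called, the same lists gave 4 calls by edgeR. CD36, a fatty acid transporter, fell by 2.38 (SE 0.36), from 22.8 and 16.1 CPM in the batch 1 specimens to 3.07 and 3.54. ANGPTL4, an inhibitor of LPL, fell by 1.82 (SE 0.35), from 66.7 and 60.9 to 9.09 and 26.8. ME1, malic enzyme, fell by 1.71 (SE 0.34). SREBF1, a regulator of lipid synthesis, rose by 3.56 (SE 0.72), from 8 UMIs in batch 1 to 82 in batch 2. It passed the count filter only through the batch 2 specimens, where it was high, so no conclusion is drawn from its call. The 4 calls were 1 of 7 other adipocyte genes, 2 of 16 lipid droplet and lipid handling genes and 1 of 9 PPARG partners and adipokine receptors. All 4 calls were lost without some single sections: CD36 was called in 15 of 16 such fits, ANGPTL4 in 13, SREBF1 in 12 and ME1 in 11. Male batch 2 section 1 ended each of them, with adjusted p = 0.0532 for CD36, 0.108 for ANGPTL4, 0.0916 for SREBF1 and 0.0872 for ME1 (edgeR, Benjamini-Hochberg). Section 2 of that specimen also ended the last 3. No gene of the 3 lists was called between the sexes.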

How the data were processed

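The matrices hold whole UMI counts, one value for each feature in each spot, from Space Ranger 2.0.0 (12 sections) and 2.1.0 (7 sections), per the file headers. Per-section tables of the same counts, Moran's I scores and their p-values were deposited by the authors, and how the scores and p-values were computed is not given in the sources used here. The labels' protocols describe fresh frozen ganglia, several sections cut from each, bought from a supplier. The genome build listed by the submitters' processing notes does not match the identifier prefix of the M. fascicularis files, so no coordinates are given.

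UMIs of tissue spots were summed per specimen and tested with edgeR 4.0.16 (quasi-likelihood test, filterByExpr filter, TMM scaling, Benjamini-Hochberg threshold 0.05; R 4.3.3), with batch and sex as terms between specimens. Classes of spots were compared with specimen as a block, and a spot could be in more than 1 class. With 1 specimen per sex and batch, p-values rest on few specimens, and edgeR's estimate of spread is in part shared over genes. Standard errors are the log2 fold change divided by the square root of the test's F. DESeq2 1.42.0 and limma 3.58.1 (voom) were alternatives. The fits were tested on simulated data. Intervals cover counting error only.

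Members were chosen by symbol. At most 4 genes per other list are named, those called with the largest absolute log2 fold change, and up to 5 partners by mean correlation, of which some are not reported here. Members and lists were chosen with earlier results of these data known. The comparison outside the tissue mask, the zones and the difference of class effects between batches were added after seeing the data.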

Additional observations from a re-analysis of the deposited data

Results flagged for a closer look

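In 4 of 19 combinations of a member and a group of 4 sections with at least 10 UMIs, 1 section stood far from the other 3 by Dixon's ratio of gap to range. Chance alone flags about 1 in 20 only where values are normally distributed, which low and skewed counts need not be. No excess over chance is therefore read from these 4. FABP4 in female batch 1 section 1 was at 138 CPM, with the next section at 18.0 (ratio 0.921). FABP4 in male batch 2 section 3 was at 139 CPM, with the next at 10.6 (ratio 0.954). ADIPOQ in that same section was at 4.94 CPM, from 10 UMIs, against none in the other 3 sections of the specimen. PLIN1 in male batch 1 section 3 was at 7.53 CPM, with the next at 3.30 (ratio 0.838). The spots of male batch 2 section 3 were not analysed here, so where its FABP4 and ADIPOQ lay in the section was not measured.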

How the results depend on the processing

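Of the counts of members called, 88 alternative values stayed within 1.5 times of the reported one and 24 did not. Between batches 1 member was called, against 3 with no low-count filter, 2 with limma-voom and 0 to 2 without single sections (0 without male batch 2 section 1, 2 or 3). With no filter, 3 members were called in fibroblast-rich, immune cell-rich and restricted-transcript spots, and 2 in endothelium-rich and smooth muscle-rich spots, each against 1. In immune cell-rich spots 0 were called in the top 10% of spots, and 0 to 1 without single specimens. Without single specimens the counts ran from 1 to 2 in myelinating Schwann cell-rich spots, 1 to 3 in fibroblast-rich, 1 to 2 in smooth muscle-rich and 1 to 3 outside the mask, where DESeq2 called 1.

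Small differences changed sign. Without single sections, the batch difference ran from -1.11 to 0.63 for FABP4, from -0.055 to 0.32 for PLIN1 and from -0.39 to 0.032 for PPARG, and the sex difference of FABP4 from -0.60 to 1.13. Without single specimens, FABP4 ran from -0.19 to 0.86 in myelinating Schwann cell-rich spots and from -0.16 to 1.16 in immune cell-rich spots. Its change in these 2 classes differed between batch 2 and batch 1 by -2.21 (SE 0.55) and 2.37 (SE 0.48). Neither was called (adjusted p = 0.0695 and 0.644 by edgeR, Benjamini-Hochberg, 0.68% and 0.00901% of genes called). Both were called with no low-count filter. With sections as samples, FABP4 differed between batches by -0.12, and by -0.73 with the section number as a replicate block. LPL, at 1.57 with that replicate block, was then called, in a fit that treats sections of 1 specimen as replicates. The cause of these changes was not tested. Over all 4 specimens section numbers did not pair the sections: same-numbered sections correlated at -0.214 to 0.523 (median 0.019), and a section's best match had its own number in 10 of 48 cases. Within batch 1 the same-numbered female and male sections all correlated (0.308, 0.234, 0.523 and 0.47). Sections 1 and 2 also correlated with each other across these specimens (0.539 and 0.484), as did 3 and 4 (0.624 and 0.496), while 1 and 2 against 3 and 4 gave -0.651 to -0.167. With the replicate block, as without it, 0 genes were called between the sexes. A stricter anchor of at least 2 restricted UMIs a spot was not run, since too few spots qualified. PLIN4, LEP, PCK1 and CIDEA had at most a few molecules a section, and the part of depth in this was not tested.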

Other observations

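The other adipocyte list was carried by 1 gene as the members' sum was. ADIRF, a regulator of fat cell formation also made outside fat, was at 1719.9 CPM in the female of batch 1, 1599.97 in the male of batch 1, 3891 in the batch 2 female and 3435 in the batch 2 male. It was not called between batches (log2 fold change 1.18, SE 0.31, adjusted p = 0.0977 by edgeR, Benjamini-Hochberg). In neuron-rich spots 5 of 6 other adipocyte genes tested were called lower by edgeR and none higher, where 43.5% of all genes were called. They included GPD1 (-1.44) and LIPE, hormone-sensitive lipase (-0.85). FABP3, a fatty acid carrier related to FABP4, was called higher there (0.95), where FABP4 was lower (-1.72).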
